A study of Mus musculus with 24 samples.

Results

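Mice given 3 courses of the macrolide antibiotic tylosin (PAT3, pulsed antibiotic treatment) were compared with mice given a single course (PAT1), over all genes of an immune panel measured in the terminal ileum at week 7 of life. The comparison used the samples whose treatment label was PAT3 (10 mice, 4 male and 6 female) or PAT1 (7 mice, 4 male and 3 female), which made 17 of the 24 samples of the series. All mice were C57BL/6, and no allele or transgene was named. Per the methods of the study, pups of both groups were nursed by a dam that drank tylosin tartrate in non-acidified water, so that the drug reached them through milk. PAT3 mice received 2 further courses after weaning, and PAT1 mice received none. PAT3 mice were thus sampled sooner after their last course than PAT1 mice. The number of courses, the age at exposure and the time since the last course cannot be told apart. The 7 Control mice (4 male, 3 female), which had non-acidified water alone, were in no contrast and entered only the shared estimate of spread. Whole litters were assigned to a regimen and animals were housed by sex and regimen after weaning, so litter and cage cannot be told apart from the regimen, and p-values measure only the spread between these mice. The group sizes given in the study's text differ slightly from those of the labels, and the labels were used. The question was whether repeated courses left expression different from that after the early course alone.

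The terminal ileum carries lymphoid follicles rich in B cells, with T cells between them, and a lamina propria and epithelium that hold T cells, natural killer cells, plasma cells and phagocytes. T cells signal through the CD3 chains and the kinase Lck, and B cells through the CD79 chains. Lymphotoxins made by lymphocytes organise follicles, and antigen is shown to CD4+ T cells on MHC class II. Ligands of the TGF-beta family act on stromal, epithelial and immune cells alike.

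The assay was the NanoString nCounter mouse immunology panel, which counts hybridized probe pairs with no amplification. Values are deposited log2 normalized counts, so that 1 unit is a 2-fold difference. Total counts ranged from 171671 to 782392 in PAT1 and from 265500 to 668511 in PAT3. The shallowest library was PAT1 replicate 1. No pair of samples differed by as little as counting noise, since even the closest of 276 pairs had 3.98 times the chi-square per degree of freedom that counting noise alone would give. Of 17 measured epithelial genes, 16 had a mean level of at least 5 over the PAT mice. Over all 24 samples 393 of 547 genes reached that level, so this count does not check the labelled tissue. PAT3 replicate 5 had the lowest mean of the epithelial list, 9.24, against 9.71 to 10.60 in PAT1. PAT1 replicates 2, 4 and 7 stood apart by B cell genes, with list means of 7.31, 6.96 and 8.25 against 5.27 to 5.71 in the other PAT1 mice and 5.0 to 6.08 in PAT3. Differences of named genes that moved by over 1.5 times are also given without PAT1 replicates 2, 4 and 7. So are the medians of the T cell, B cell, cytotoxic, MHC class II, stromal, type 2, epithelial and IgA lists. The medians of the remaining lists are not given in this way.

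In PAT3 against PAT1, 23 of 547 genes passed an adjusted p of 0.05 by limma with Benjamini-Hochberg adjustment (4.2%). Of these, 15 were lower in PAT3 (2.74%) and 8 were higher (1.46%), and are termed called. The lower genes included those of T cells (Lck, Cd3d, Cd8a and Cd2), B cells and follicles (Tnfrsf13c, Cd79b, Ikzf3, Lta and Ltb), cytotoxic and natural killer cells (Il2rb, Klrb1, Klrd1 and Slamf7) and MHC class II loading (H2-DMa), and the activation antigen gene Cd69. The higher genes were Tgfb2, Tgfb3 and the TGF-beta binding protein gene Cd109, the receptors Tlr4 and Tlr5, Cd34, Ptgs2 and Atm. Sizes were modest, from 0.48 to 1.57 on the log2 scale, and 7 of the 23 genes differed at least 2-fold. All 23 adjusted p lay between 0.0401 and 0.0419, so the whole list could be lost or kept at once. Leaving out any one of PAT1 replicates 1, 2, 4 and 7 or PAT3 replicates 1 to 6, 8 and 9 left 0 genes called by limma, with 107 to 153 genes at an unadjusted p under 0.05 (156 with all samples), whereas without PAT1 replicate 5 or 6 or PAT3 replicate 7 or 10 there were 71, 86, 102 and 55 calls. No gene was called by limma on the 17 PAT samples alone (136 at an unadjusted p under 0.05), while voom on recovered counts called 47. The methods' test also called no gene, with 95 genes at a Tukey p under 0.05. The Tukey p is already adjusted over the comparisons between groups, so that count is not on the scale of the others. With quantile normalization 32 genes were called, 21 higher and 11 lower, and with re-centring on each sample's median 57 genes, 30 higher and 27 lower, so the split of directions depended on the scaling. None of the 23 genes changed direction under any alternative in which it was tested. The values of PAT1 and PAT3 overlapped for every gene, with 0 of 547 genes (0%) fully apart, 2 without PAT3 replicate 7 and 1 without PAT1 replicate 5 or PAT3 replicate 10.

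For 14 of the 23 called genes a promoter window was found in RefSeq (GRCm38.p6), and 4 are shown because they stand for the T cell genes (Cd3d), the follicle and B cell genes (Ltb and Tnfrsf13c) and the higher genes (Cd34). Each line gives the 250 bases before the annotated start, 5′ to 3′ on the strand of the gene. Capitals mark matches on either strand to AGGAAG (bound by ETS factors), TGTGGT (RUNX factors) or CAGGTG (an E-box), and no window shown held the octamer ATTTGCAT.
Cd3d, chr9:44981536-44981785, plus strand: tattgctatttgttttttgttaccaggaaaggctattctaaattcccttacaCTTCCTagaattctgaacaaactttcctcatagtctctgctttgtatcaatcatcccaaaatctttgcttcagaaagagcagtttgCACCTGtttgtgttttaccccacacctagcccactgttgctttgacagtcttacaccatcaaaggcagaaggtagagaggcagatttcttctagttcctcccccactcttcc
Ltb, chr17:35194257-35194506, plus strand: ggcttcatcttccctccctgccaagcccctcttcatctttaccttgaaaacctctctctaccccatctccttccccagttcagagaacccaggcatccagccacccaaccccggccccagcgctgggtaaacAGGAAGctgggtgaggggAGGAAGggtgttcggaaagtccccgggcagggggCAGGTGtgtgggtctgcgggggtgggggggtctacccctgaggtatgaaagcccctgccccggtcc
Tnfrsf13c, chr15:82224381-82224630, minus strand: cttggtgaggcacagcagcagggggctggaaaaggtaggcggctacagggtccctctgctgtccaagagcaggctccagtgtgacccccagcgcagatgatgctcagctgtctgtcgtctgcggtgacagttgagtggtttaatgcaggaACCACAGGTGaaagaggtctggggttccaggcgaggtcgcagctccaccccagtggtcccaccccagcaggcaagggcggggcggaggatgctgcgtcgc
Cd34, chr1:194938571-194938820, plus strand: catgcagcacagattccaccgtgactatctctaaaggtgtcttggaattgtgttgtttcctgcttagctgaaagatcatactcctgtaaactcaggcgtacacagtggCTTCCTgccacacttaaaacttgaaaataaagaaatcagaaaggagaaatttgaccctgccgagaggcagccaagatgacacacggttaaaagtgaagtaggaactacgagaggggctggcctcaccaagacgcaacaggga
In the Tnfrsf13c window the RUNX and E-box matches overlap. Over all called genes with a window, AGGAAG was found in 5 of 11 windows of the lower genes and in 3 of 5 windows of the higher genes, against 39.2% of the windows of the panel and 29.5% of all windows in the table. CAGGTG was found in 5 of 11 and 1 of 5, against 21.0% and 17.2%. TGTGGT was found in 3 of 11 and 1 of 5, against 16.4% and 14.0%. These matches describe letters in the windows and carry no test. Windows of Cd109, Cd2, Cd69, Cd79b, Ikzf3, Il2rb, Klrd1, Tgfb3 and Tlr4 were not analysed here.

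T cell genes averaged mostly lower in PAT3. Of 22 measured genes of the T cell receptor complex and identity, 18 had a lower mean, against 53.0% of all 547 genes. In this list 4 genes were called, all lower, against 2.74% called lower over all genes. The median difference over the list was -0.45 against -0.03 over all genes. Fewer T cells and less RNA per T cell cannot be told apart in whole tissue. Lck, the kinase that starts signalling from the T cell receptor, ranged from 6.69 to 8.15 with a median of 7.07 in PAT1 and from 6.22 to 6.93 with a median of 6.44 in PAT3. All 10 PAT3 mice lay below the PAT1 mean and 8 below the lowest PAT1 mouse. Lck had a PAT1 mean of 7.21 ± 0.52 (SD, n = 7) and a PAT3 mean of 6.50 ± 0.21 (SD, n = 10), a log2 difference of -0.71 (95% interval -1.05 to -0.37, adjusted p = 0.0401 by limma). Its Control mean was 7.59 ± 0.17 (SD, n = 7). Cd3d, which encodes a CD3 chain, ranged from 6.26 to 7.77 (median 6.93) in PAT1 and from 5.30 to 6.84 (median 6.04) in PAT3. All PAT3 values of Cd3d were below the PAT1 mean, and the log2 difference was -0.88 (95% interval -1.31 to -0.45, adjusted p = 0.0401). Cd8a encodes the alpha chain of the CD8 coreceptor. The study reported CD8+ lymphocytes in the spleen, not in the ileum, and found them reduced after either regimen. It ranged from 6.09 to 6.97 (median 6.48) in PAT1 and from 4.63 to 6.59 (median 5.44) in PAT3, and 9 of 10 PAT3 mice lay below the lowest PAT1 mouse. The log2 difference of Cd8a was -0.90 (95% interval -1.36 to -0.44, adjusted p = 0.0401), beside a Control mean of 7.35 ± 0.34 (SD, n = 7). Cd2, an adhesion receptor of T and natural killer cells, spread widely in PAT1, from 5.11 to 7.78, and lay between 4.52 and 6.53 in PAT3, with a log2 difference of -1.05 (95% interval -1.64 to -0.46). Cd69, an early activation antigen that also keeps lymphocytes in tissue, ranged from 4.70 to 5.44 in PAT1 and from 3.59 to 4.95 in PAT3, where 9 of 10 mice lay below the lowest PAT1 mouse (log2 difference -0.79, 95% interval -1.17 to -0.41, adjusted p = 0.0401). Without PAT1 replicates 2, 4 and 7 the difference was -0.38 for Lck and -0.62 for Cd2, while that of Cd8a was -0.82.

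**Figure D1:**
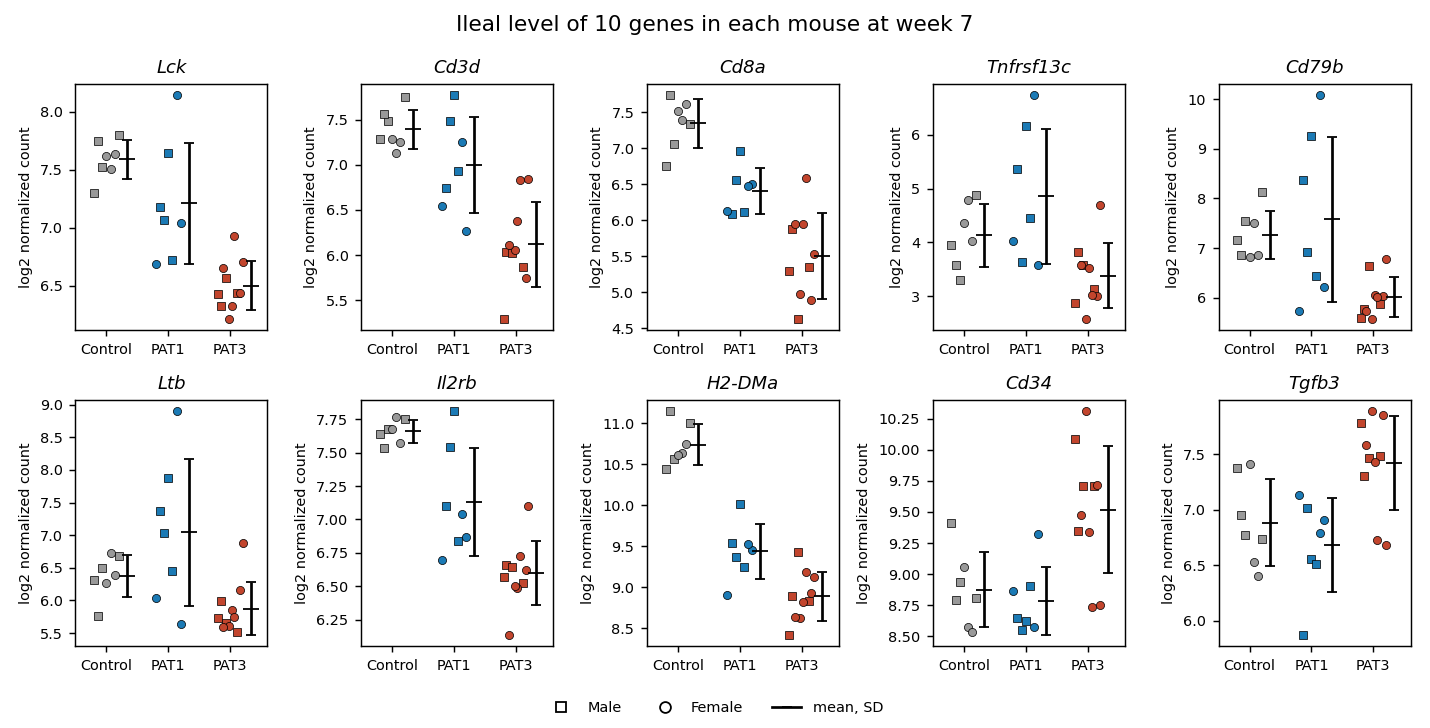
Log2 normalized counts of 10 called genes in each Control (grey), PAT1 (blue) and PAT3 (red) mouse, with squares for males, circles for females and the mean and SD of each group beside its points. The 10 PAT3 mice sat below the PAT1 mean for Lck, Cd3d, Tnfrsf13c, Cd79b, Ltb, Il2rb and H2-DMa, while for Cd79b and Ltb the PAT1 mice were spread over more than 3 log2 units.

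B cell and follicle genes had the lowest median difference of the 19 lists and varied widely among PAT1 mice. Of 21 measured genes 5 were called, all lower in PAT3 (2.74% over all genes), and the median difference was -1.03. Tnfrsf13c, the receptor for the B cell survival factor BAFF, ranged from 3.58 to 6.74 (median 4.45) in PAT1 and from 2.58 to 4.68 (median 3.33) in PAT3. Its log2 difference was -1.47 (95% interval -2.27 to -0.68, adjusted p = 0.0401), from median counts of 17 and 12. Cd79b, a signalling chain of the B cell receptor, was measured at 6.93, 9.26, 6.45, 8.37, 6.23, 5.73 and 10.08 in PAT1 replicates 1 to 7 and between 5.58 and 6.78 (median 5.95) in PAT3. PAT1 replicates 2, 4 and 7 were thus above every PAT3 mouse by more than 1.5 units, whereas the remaining 4 PAT1 mice lay among or just above them. The log2 difference of Cd79b was -1.57 (95% interval -2.47 to -0.66, adjusted p = 0.0401). Ltb, lymphotoxin beta, which organises follicles, ranged from 5.64 to 8.90 (median 7.04) in PAT1 and from 5.51 to 6.89 (median 5.73) in PAT3, a log2 difference of -1.17 (95% interval -1.82 to -0.52). Its partner Lta ranged from 3.90 to 6.29 in PAT1 and from 2.49 to 4.24 in PAT3 (log2 difference -1.03), with median counts of 19 and 14.5. Ikzf3, the lymphocyte transcription factor Aiolos, differed by -1.05 (95% interval -1.63 to -0.48), and 7 of 10 PAT3 mice lay below the lowest PAT1 mouse. Ms4a1, which encodes CD20, varied widely within PAT1 and was not called. It had a log2 difference of -2.16 (95% interval -3.80 to -0.51, adjusted p = 0.0864) with SDs of 2.83 in PAT1 and 0.79 in PAT3. Without PAT1 replicates 2, 4 and 7, left out after their values were seen, the difference was -0.32 for Cd79b, -0.42 for Ltb, -0.54 for Tnfrsf13c, -0.53 for Lta, -0.49 for Ikzf3 and 0.0097 for Ms4a1. Without them the median difference of the list was -0.16, that of the T cell list was -0.22, and no gene of the panel was called by limma (72 at an unadjusted p under 0.05).

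Cytotoxic lymphocyte and natural killer cell genes also averaged mostly lower in PAT3. Of 18 measured genes 4 were called, all lower (2.74% over all genes). A lower mean in PAT3 was found for 16 (53.0% over all genes), with a median difference of -0.46. Il2rb, the beta chain of the receptors for IL-2 and IL-15, ranged from 6.70 to 7.81 (median 7.04) in PAT1 and from 6.13 to 7.10 (median 6.60) in PAT3. Its log2 difference was -0.53 (95% interval -0.83 to -0.24, adjusted p = 0.0401), and 8 of 10 PAT3 mice lay below the lowest PAT1 mouse. Klrd1, the CD94 receptor chain, ranged from 5.90 to 6.57 in PAT1 and from 5.35 to 6.26 in PAT3 (log2 difference -0.53). Slamf7, a receptor on natural killer and plasma cells, had a PAT1 mean of 7.70 ± 0.47 (SD, n = 7) and a PAT3 mean of 7.11 ± 0.21 (SD, n = 10) (log2 difference -0.58). Klrb1, a lectin-like receptor of natural killer cells, had medians of only 9 counts in PAT1 and 7 in PAT3, and a log2 difference of -1.01 (95% interval -1.58 to -0.43). It belongs to a family of similar genes, and how far its probe tells them apart was not analysed here. Without PAT1 replicates 2, 4 and 7 the difference of Slamf7 was -0.38, the median of the list was -0.39, and after adjustment for the mean of the B cell list it was -0.36. Xcl1, a chemokine of natural killer and CD8+ T cells, had a difference of -0.51 that was not called (adjusted p = 0.0978).

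In antigen presentation, 1 of 9 MHC class II genes was called, where 4.2% of all genes were. A lower mean in PAT3 was found for 8 of the 9 (53.0% over all genes), with a median difference of -0.43. H2-DMa, part of the complex that loads peptides onto class II, ranged from 8.91 to 10.01 (median 9.45) in PAT1 and from 8.42 to 9.43 (median 8.86) in PAT3, a log2 difference of -0.55 (95% interval -0.86 to -0.23, adjusted p = 0.0401). Every PAT3 value was below the PAT1 mean, and both groups lay below all Control mice, which ranged from 10.45 to 11.15. The class II chain gene H2-Eb1 had a difference of -0.40 (95% interval -0.70 to -0.10, adjusted p = 0.0833). H2-DMb2 and H2-Ob, other members of the loading machinery, had larger differences of -1.20 and -1.16 that were not called, with SDs in PAT1 of 1.46 and 1.49 against 0.39 and 0.48 in PAT3. Without PAT1 replicates 2, 4 and 7 the list median was -0.15, and the difference was -0.35 for H2-DMa, -0.097 for H2-DMb2 and -0.13 for H2-Ob. Among 14 MHC class I genes 0 were called by limma, and the median difference was -0.05, or 0.01 after quantile normalization. Those of smallest p were the light chain gene B2m (-0.50, adjusted p = 0.0622), the immunoproteasome subunit Psmb9 (-0.53, adjusted p = 0.0978), the peptide transporter Tap1 (-0.44) and the heavy chain gene H2-K1 (-0.41).

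Among the higher genes in PAT3 were a pair of TGF-beta ligands. Of 10 measured genes of TGF-beta signalling 2 were called, both higher (1.46% over all genes), and the median difference was 0.21. The direction of that median was not shared by the sexes, at 0.56 in males and -0.18 in females, while the differences of Tgfb2 and Tgfb3 were positive in both. Tgfb2 ranged from 4.56 to 5.81 (median 5.48) in PAT1 and from 4.95 to 6.59 (median 6.28) in PAT3, and 8 of 10 PAT3 mice lay above the highest PAT1 mouse. Its log2 difference was 0.82 (95% interval 0.35 to 1.29, adjusted p = 0.0401). Tgfb3 ranged from 5.87 to 7.13 (median 6.79) in PAT1 and from 6.68 to 7.89 (median 7.47) in PAT3, where again 8 of 10 mice were above every PAT1 mouse (log2 difference 0.74, 95% interval 0.32 to 1.15). The receptor gene Tgfbr2 had a difference of 0.37 (95% interval 0.13 to 0.61, adjusted p = 0.0562) and Runx3, a transcription factor of CD8+ T cells, one of -0.43 (adjusted p = 0.0958). Cd109, a surface protein that binds TGF-beta, had a PAT1 mean of 5.26 ± 0.74 (SD, n = 7) and a PAT3 mean of 6.23 ± 0.37 (SD, n = 10), the largest rise among the called genes (log2 difference 0.97, 95% interval 0.42 to 1.51).

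Stromal and endothelial genes had the highest list median, 0.41, with a higher mean in PAT3 for 17 of 19 genes (47.0% over all genes). Of the 19 genes 1 was called, close to the 4.2% over all genes. The median was 0.54 in males and 0.07 in females. In males 7 genes of the list were called higher, against 67 of all 547 genes. In females 0 were, but no gene of the panel was called in females. The 1 called over all mice was Cd34, a surface mucin of endothelial cells and stromal progenitors. It ranged from 8.55 to 9.33 (median 8.65) in PAT1 and from 8.73 to 10.31 (median 9.59) in PAT3, a log2 difference of 0.73 (95% interval 0.33 to 1.13, adjusted p = 0.0401). Of the PAT3 mice 8 were above every PAT1 mouse, and the female PAT3 replicates 7 and 10 were among the PAT1 values. Fn1, fibronectin, had a difference of 0.74 (95% interval 0.28 to 1.19, adjusted p = 0.0551) and was not called. The complement genes C1s and C1ra, which stromal cells make, had differences of 0.50 and 0.48, with adjusted p of 0.0740 and 0.0851. Without PAT1 replicates 2, 4 and 7 the list median was 0.36.

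The remaining called genes were microbe sensors, a prostaglandin enzyme and a DNA damage kinase. Tlr5, the receptor for bacterial flagellin, ranged from 4.44 to 6.02 (median 5.31) in PAT1 and from 5.63 to 6.20 (median 5.90) in PAT3. All 10 PAT3 mice were above the PAT1 mean of Tlr5 (log2 difference 0.61, 95% interval 0.27 to 0.96). Tlr4, the receptor for lipopolysaccharide, ranged from 6.29 to 6.96 in PAT1 and from 6.56 to 7.46 in PAT3, with 8 of 10 PAT3 mice above the highest PAT1 mouse (log2 difference 0.48, 95% interval 0.20 to 0.76). Over the 25 measured genes of pattern recognition and NF-kB, these were the only calls (4.2% over all genes). The median difference was 0.11, or 0.35 in males and -0.09 in females. Irak3, an inhibitor of Toll-like receptor signalling, and Nod2, a sensor of bacterial cell walls, had differences of 0.37 and 0.35 that were not called. Ptgs2, the inducible cyclooxygenase, ranged from 6.01 to 7.14 in PAT1 and from 6.91 to 7.61 in PAT3, with 8 of 10 PAT3 mice above every PAT1 mouse (log2 difference 0.68, 95% interval 0.31 to 1.05). Atm, the kinase that responds to DNA breaks, had a PAT1 mean of 6.49 ± 0.50 (SD, n = 7) and a PAT3 mean of 7.14 ± 0.27 (SD, n = 10) (log2 difference 0.65).

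**Figure D2:**
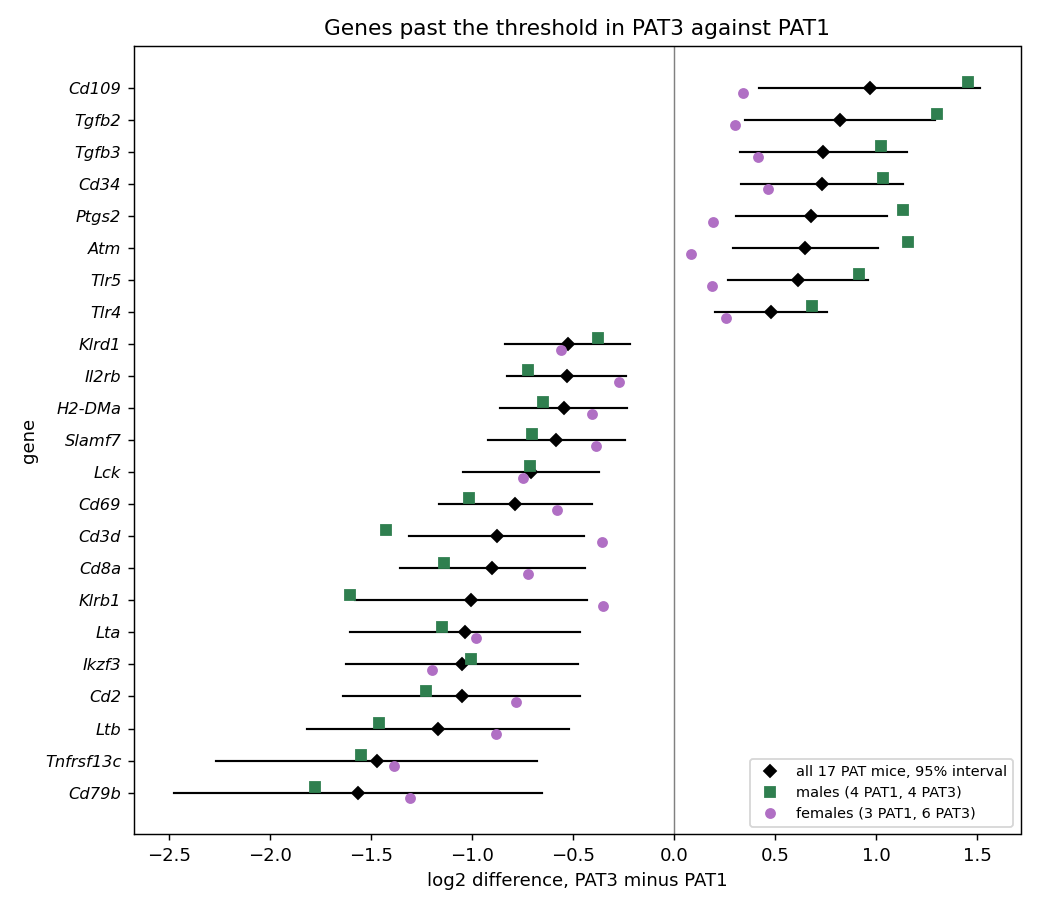
Log2 difference, PAT3 minus PAT1, of the 23 called genes, with the 95% interval over all 17 PAT mice (diamonds and lines) and the differences within males (squares) and within females (circles). No interval over all mice reaches 0, the 15 lower genes run from -1.57 to -0.53 and the 8 higher genes from 0.48 to 0.97, and the male value is the larger of the sexes for 20 of 23 genes.

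Transcripts that match what the study measured by other assays were examined whatever their value, with Il17f, Il22 and Pigr added as related genes. Those assays measured cells or protein, and the changes in CD8+ and CD4+ cells as a whole were reported in the spleen. RNA of whole ileum is thus not the same measure. Apart from Cd8a, none was called. Il17a, the cytokine of Th17 cells, ranged from 2.17 to 4.48 in PAT1 and from 2.24 to 3.36 in PAT3, from median counts of 8 and 7.5. The difference of Il17a was -0.23 (95% interval -0.74 to 0.27, adjusted p = 0.556), an interval that spans both directions. Il17f and Il22, from median counts of 5 and 3 in PAT1 and 6 and 3 in PAT3, had differences of -0.46 (-1.42 to 0.50) and -0.26 (-1.18 to 0.65). The T helper coreceptor gene Cd4 differed by -0.18 (95% interval -0.48 to 0.13), a narrower interval than that of Foxp3, the regulator of regulatory T cells (0.09, -0.44 to 0.62). Ifng, the interferon of Th1 cells, differed by -0.40 (-0.89 to 0.09). Pigr, which carries secretory IgA across the epithelium, ranged from 12.98 to 14.93 in PAT1 and from 12.75 to 15.08 in PAT3, a difference of 0.42 (-0.17 to 1.0, adjusted p = 0.349). PAT3 replicate 7 alone set the lower end for Pigr in PAT3, since the next lowest mouse was at 14.50.

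Over the other lists, no gene of the IgA and plasma cell, interferon gamma, type I interferon, Th17, regulatory T cell, type 2, myeloid, granulocyte or complement lists was called by limma. Their medians lay between -0.23 for the Th17 list and 0.09 for complement, and that of the myeloid list, -0.04, was 0.01 after re-centring. Tnfrsf13b, a receptor for BAFF and APRIL, had a difference of -0.88 and Ccr9, the gut homing receptor, one of -0.47. Cxcl9, a chemokine induced by interferon gamma, and Nos2, the inducible nitric oxide synthase, had differences of -0.61 and -0.62 with adjusted p of 0.111 and 0.125. Irf7 and Irf3, which drive type I interferon, pointed in opposite directions at -0.91 and 0.29. In the Th17 list the chemokine receptor Ccr6 had a difference of -1.26 (adjusted p = 0.0762). The inhibitory receptor Tigit differed by -0.43. Tslp, an epithelial alarmin, and Kit, the receptor of mast cells and interstitial cells of Cajal, differed by 0.49 and 0.76 with adjusted p of 0.0562 and 0.0662. The myeloid growth factor Csf1 and the monocyte receptor Ccr2 differed by 0.61 and 0.54, and the neutrophil gene S100a8 by -0.51. In the common gamma chain list, Il2rb was the only call, while Stat5a (0.53) and Il21r (-0.91) pointed in opposite directions. Leaving out PAT1 replicates 2, 4 and 7 gave differences of -0.21 for Ccr6, 0.0032 for Il21r, -0.39 for Cxcl9 and -0.40 for Nos2. Without these mice the type 2 median turned from 0.08 to -0.06 and the epithelial median from 0.01 to -0.002. That of the IgA and plasma cell list went from -0.12 to -0.22. The Th17 median was -0.51 in males and 0.10 in females, and the granulocyte median -0.46 in males and 0.18 in females. The late complement component C7 differed by 0.71 (adjusted p = 0.132). In the epithelial list Ptgs2 was the only call, and the median was 0.01 and the mean -0.02, of opposite sign, as in the type I interferon list (0.03 and -0.05). Nox1, an epithelial NADPH oxidase, differed by 0.94 (adjusted p = 0.103).

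**Figure D3:**
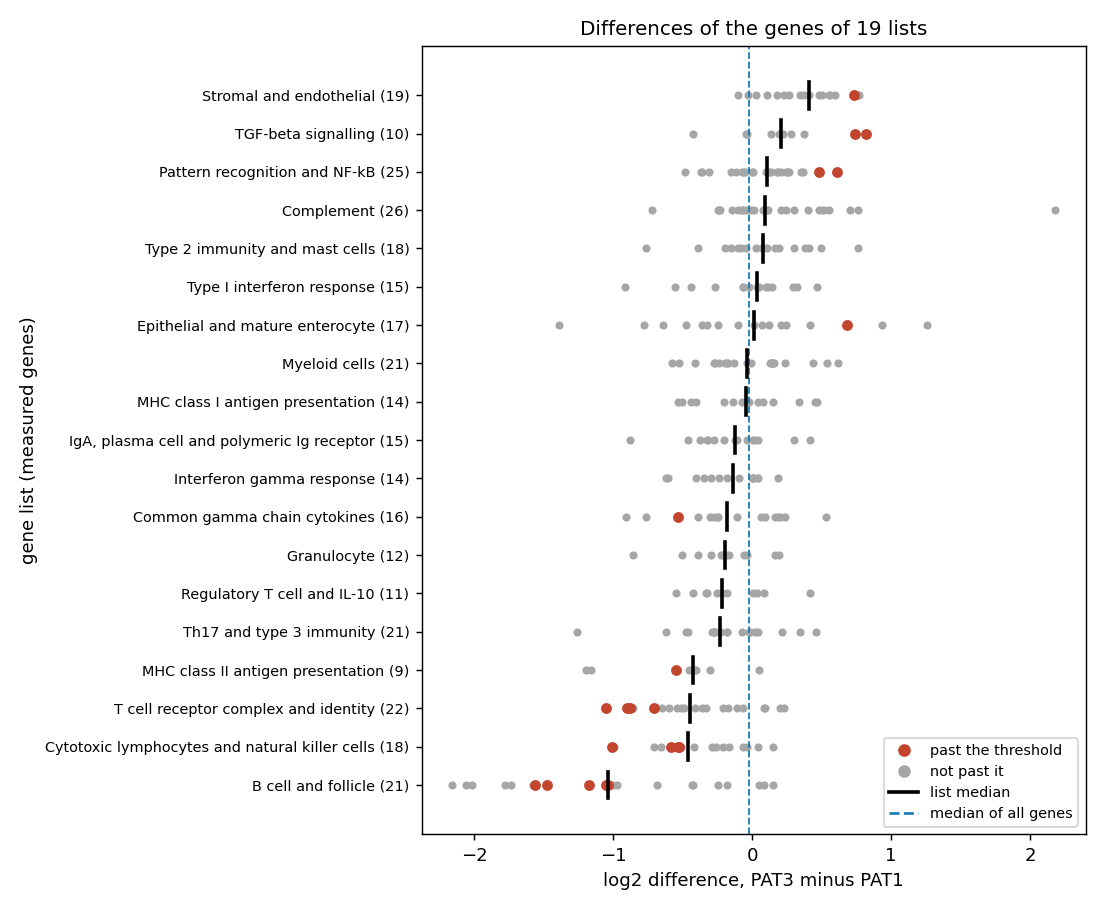
Log2 difference, PAT3 minus PAT1, of every measured gene (points, red where called) in 19 gene lists ordered by their median (black bars), with the median of all genes as a dashed line. The B cell and follicle list is lowest with a median of -1.03, the T cell and cytotoxic lists lie near -0.45, and the stromal list is highest at 0.41.

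Among genes with a mean level of at least 5 over all samples, the 10 largest differences were mostly outside the called set. Only Cd79b and Ltb among them were called. Btla, an inhibitory receptor of B and T cells, missed the threshold at -1.09 (95% interval -1.76 to -0.43, adjusted p = 0.0551). Bst1, an ectoenzyme that converts NAD, had a median of 10.49 and a highest value of 11.23 in PAT1 and ranged from 6.30 to 10.99 (median 9.37) in PAT3, with PAT3 replicate 5 lowest (log2 difference -1.39, adjusted p = 0.0836, or -1.07 without that mouse). Cd36, a scavenger receptor that takes up fatty acids, went the other way, from 7.76 to 9.80 in PAT1 and from 8.43 to 12.09 in PAT3 (log2 difference 1.26, 95% interval 0.42 to 2.09, adjusted p = 0.0576). Cfd, adipsin, a complement protease made by fat cells, had the largest difference of these, 2.18 (95% interval 0.06 to 4.30), and also the widest ranges, 4.43 to 11.45 in PAT1 and 7.53 to 14.58 in PAT3. The difference without PAT1 replicates 2, 4 and 7 was 0.17 for Cfd, -0.26 for Btla and 0.84 for Cd36.

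For most genes, values also varied more among these PAT1 mice than among the PAT3 mice. The SD was larger in PAT1 for 362 of 547 genes (66.2%), with a median SD over genes of 0.44 in PAT1, 0.38 in PAT3 and 0.31 in Control. An SD at least 2 times that of the other group was found for 77 genes in PAT1 and 15 in PAT3. Among the called genes it was 4.11 times larger in PAT1 for Cd79b, 2.76 times for Ltb, 2.43 times for Lck and 3.0 times for Tlr5, while Cd8a and Cd34 varied more in PAT3 (ratio 0.54 for both). The PAT1 SDs include the mice that stood apart by B cell genes, which held the highest PAT1 values of Cd79b, Ltb and Lck. PAT1 also held the shallowest library. SDs without these mice are not given, and the part of these mice and of depth in the wider spread was not tested. Since the fit assumes 1 spread per gene, the group weights of an added fit, which allow each group its own, left 0 genes called by limma (127 at an unadjusted p under 0.05). After adjustment for the mean of the B cell list 0 genes were called (52 at an unadjusted p under 0.05), and the medians of the T cell, class II and stromal lists were -0.14, -0.07 and 0.33. The B cell list itself holds 5 of the 23 called genes, so the loss of those 5 calls is no separate check.

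**Figure D4:**
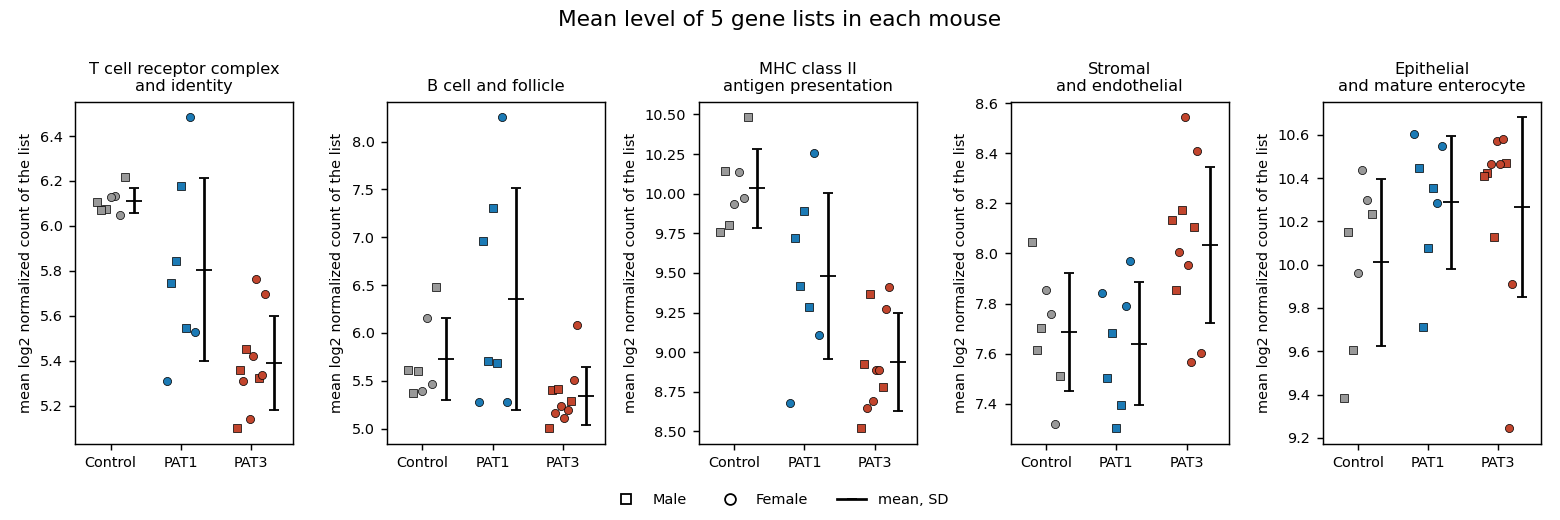
Mean log2 normalized count of 5 gene lists in each Control (grey), PAT1 (blue) and PAT3 (red) mouse, with squares for males, circles for females and the mean and SD of each group. PAT1 replicates 7, 2 and 4 hold the 3 highest B cell means (8.25, 7.31 and 6.96), the stromal means run from 7.57 to 8.54 in PAT3 against 7.30 to 7.97 in PAT1, and 1 PAT3 mouse stands apart with an epithelial mean of 9.24.

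Because the sexes were unequally represented, sex was added as a covariate, which left 25 genes called by limma, 22 of them among the 23. The comparison was also repeated within each sex in a fit with a mean for every regimen and sex. In males 119 genes were called (21.8%), 67 higher and 52 lower in PAT3, and they included 19 of the 23 genes called over all mice. In females limma called 0 genes (0%), with 46 at an unadjusted p under 0.05. All 23 genes called over all mice had the same sign in both sexes, and the male difference was larger for 20. These 23 genes were picked by their difference over the same mice, so their shared sign is no separate check in females. Over all genes the sign was shared by the sexes for 271 of 547 (49.5%). The values of PAT1 and PAT3 males did not overlap for 157 genes (28.7%), among them 19 of the 23, and those of females for 12 genes (2.19%), among them none of the 23. Depth moved with the regimen in males, where PAT1 totals were 171671, 389743, 294135 and 631905 and PAT3 totals ran from 551339 to 668511. Its part in the male differences was not tested. The size factor covariate was fitted only over all mice and for the difference between the sexes. Among the genes of smallest p in males were Tcf4 and Zeb1, transcription factors of stromal and other cells, and the endothelial genes Cdh5 and Pecam1. Their male differences were 0.97, 1.15, 1.51 and 1.32, and their female differences -0.02, 0.05, -0.08 and -0.18. Among the lower genes in males, Fcamr, a receptor for IgA and IgM, had differences of -1.54 in males and -0.59 in females, Xcl1 of -1.03 and -0.04, and the neutrophil chemokine Cxcl3, from median counts of 6 and 5, of -1.37 and 1.21.

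The difference itself differed between the sexes for 4 genes (0.731%), Il17f, Tnfsf14, Cd28 and Mx1. Il17f was measured at 3.63, 3.61, 3.86 and 2.84 in PAT1 males and at 1.24, -0.32, 2.0 and 1.87 in PAT3 males. In females it was at 1.58, 1.94 and 1.70 in PAT1 and at 3.80, 2.51, 4.24, 2.77, 2.89 and 1.80 in PAT3. Thus PAT3 was lower in males (-2.29, 95% interval -3.25 to -1.33) and not called in females (1.26, 0.30 to 2.22), and the female minus male difference was 3.55 (95% interval 2.20 to 4.90, adjusted p = 0.0102). These values rest on 1 to 14 counts per PAT mouse, and the lowest, -0.32, stood for 1 count. Tnfsf14, the TNF family ligand LIGHT, differed by -1.37 in males and 0.66 in females, a female minus male difference of 2.03 (adjusted p = 0.0173), from 7 to 21 counts per PAT mouse. Cd28, the main costimulatory receptor of T cells, was at 6.17, 5.49, 5.51 and 4.80 in PAT1 males, all above the 4.20 to 4.46 of PAT3 males, while PAT3 females (4.09 to 5.68) spread around PAT1 females (4.54 to 4.64). Its female minus male difference was 1.57 (95% interval 0.81 to 2.32, adjusted p = 0.0409). Mx1, an interferon-induced GTPase, was at 7.50, 7.31, 7.27 and 7.83 in PAT1 males and at 8.41, 8.37, 8.19 and 8.58 in PAT3 males, with a female minus male difference of -0.98 (adjusted p = 0.0409) from 73 to 507 counts per PAT mouse. PAT1 males were the only one of the 4 groups of PAT mice with Mx1 values under 8. With the size factor of each sample as a covariate 0 genes differed between the sexes by limma (25 at an unadjusted p under 0.05, 140 without it), and with quantile normalization there were also 0 (103). Leaving out 1 mouse gave 88 calls without PAT1 replicate 4, 34 without PAT3 replicate 9, 17 without PAT3 replicate 5, 11 without PAT1 replicate 7 and 7 without PAT3 replicate 7. It gave 2 without PAT1 replicate 5, PAT3 replicate 2 or 6 or Control replicate 2, 4 or 5, and 1 without PAT1 replicate 1 or 2 or PAT3 replicate 4.

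**Figure D5:**
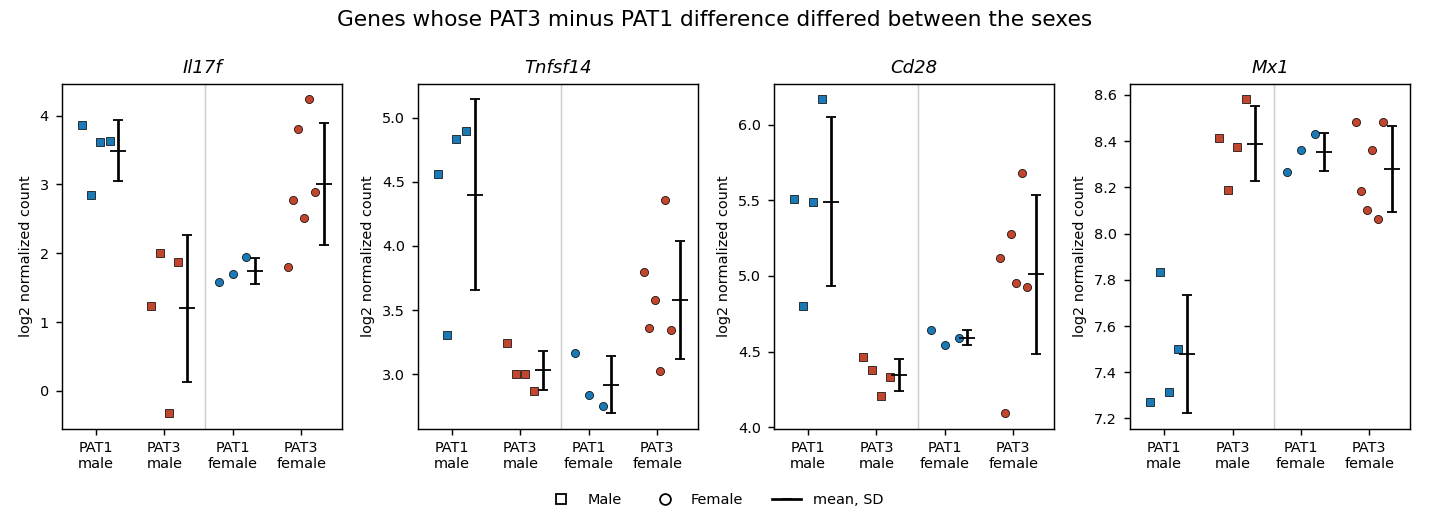
Log2 normalized counts of Il17f, Tnfsf14, Cd28 and Mx1 in each PAT1 (blue) and PAT3 (red) mouse by sex, with the mean and SD of each set of mice. PAT3 males sit below PAT1 males for Il17f, Tnfsf14 and Cd28 and above them for Mx1, and females do not show the same order.

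Where the called genes lay relative to untreated mice was described from the group means, which share the Control samples. Of the 15 lower genes, 8 were below the Control mean in both PAT groups and farther in PAT3 (Lck, Cd3d, Cd8a, Il2rb, Klrb1, Klrd1, Slamf7 and H2-DMa). For Cd8a the distance from Control was -0.94 in PAT1 and -1.84 in PAT3, and for Lck -0.38 and -1.09. The means of the other 7 lower genes (Cd69, Cd2, Tnfrsf13c, Cd79b, Ikzf3, Lta and Ltb) lay above Control in PAT1 and below it in PAT3. Ltb was at 0.67 and -0.50, and Tnfrsf13c at 0.73 and -0.75. Ikzf3 was only 0.03 above Control in PAT1. These PAT1 means include replicates 2, 4 and 7, which stood apart by B cell genes, and the distances were not computed without them. By medians, Cd79b (6.93 in PAT1, 7.16 in Control) and Ikzf3 (5.40 and 5.78) were below Control in PAT1, and the other genes of this set were above it. Of the 8 higher genes, 6 (Atm, Cd109, Cd34, Ptgs2, Tgfb2 and Tgfb3) had means below Control in PAT1 and above it in PAT3, as for Atm at -0.33 and 0.32. The means of Tgfb3 lay at -0.20 and 0.54 from Control. By medians, however, Cd109 (5.72 in PAT1, 5.08 in Control) and Tgfb3 (6.79 and 6.78) were above Control in PAT1 as well. Tlr5 was above Control in both, at 0.25 and 0.86. Tlr4 was below Control in both, at -0.59 in PAT1 and -0.11 in PAT3. These distances were not tested here.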

How the data were processed

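The 24 samples were terminal ileum RNA counted on the nCounter panel. The labels describe TRIzol with a column clean-up for the RNA and the methods a kit, so the extraction is not settled. Per the methods the authors scaled raw counts with DESeq2 (version not given in the sources used here), and deposited log2 normalized counts for 547 genes. Whether background was subtracted is not stated in the sources used here. No genome build was needed. A count of 0 is listed as 0 (19 values in 9 genes), so values near 0 have no order.

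Groups and replicate numbers came from the labels, the latter in accession order, so numbers pair no samples. Whole counts were recovered from the values, and 100% of 13109 values above 0 came out whole (tolerance 0.01 counts). Totals were 171671 to 782392 counts. They cover counting error only and were used for depth and for voom.

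The main test was limma 3.58.1 (R 4.3.3) on the deposited values, with 1 mean per group over all 24 samples, the contrast PAT3 minus PAT1 and Benjamini-Hochberg adjustment over all genes at 0.05. A fit of 6 regimen-by-sex means gave the sexes and their difference. The fits were tested on simulated data. The methods' test was a 3-group analysis of variance with Tukey's comparison and false discovery adjustment. The 42 alternatives (24 of them leaving out 1 sample) covered samples, covariates, weights, scaling, a low-level filter and voom.

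Genes were named by rule: all called, those tied to the study's other assays, up to 4 of smallest p per list, up to 12 of smallest p in males and between the sexes, and the 10 largest differences at a mean of at least 5. Of the list examples, those that add to the account were printed. Some genes that the rule names are not reported here. Members and the 19 lists were chosen with earlier results of these data known. Symbols were matched to RefSeq (531 current, 14 older, 2 unmatched), which gave the promoter windows.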

Additional observations from a re-analysis of the deposited data

Results flagged for a closer look

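Of 66 groups of values tested for a mouse far from the rest of its group, 4 had one, where chance flags about 1 in 20. Lta was at 2.49 in PAT3 replicate 2, with the next lowest PAT3 mouse at 3.36. Ltb was at 6.89 in PAT3 replicate 7, with the next highest at 6.16. Cd4 was at 7.13 in PAT1 replicate 7, with the next highest at 6.55. Pigr was at 12.75 in PAT3 replicate 7, with the next lowest at 14.50.

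The PAT3 minus PAT1 difference itself differed between females and males, by the interaction contrast in limma, for Il17f (3.55, female minus male, on the log2 scale), Tnfsf14 (2.03), Cd28 (1.57) and Mx1 (-0.98). Il17f rested on 1 to 14 counts and Tnfsf14 on 7 to 21 counts per PAT mouse.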

How the results depend on the processing

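Against 23 genes called, the methods' test called 0 (95 at a Tukey p under 0.05, before the false discovery adjustment). Limma called 0 with the PAT samples alone, in females alone, with the size factor as a covariate and after adjustment for the B cell list mean. The B cell list holds 5 of the 23 genes. In fits chosen after seeing the data, limma also called 0 with group weights or without the 3 PAT1 samples of highest B cell list mean. It called 25 with sex as a covariate, 39 with a trended prior, 47 by voom and 48 with the low filter. With re-centring it called 57, with the enterocyte covariate 72, with sample weights 93 and in males alone 129. Without any 1 Control it called 22 to 29. Leaving out 1 sample gave 0 to 102 calls. The 4 calls between the sexes became 0 with quantile normalization, the low filter or the size factor, 10 with the enterocyte covariate, 11 with re-centring, 38 without the 3 PAT1 samples and 69 with sample weights, and 1 to 88 on leaving out 1 sample. The low filter removed Il17f, Tnfsf14 and Cd28 before testing, so of the 4 genes only Mx1 could be called with it. Genes without overlap were 0 to 2. For the 23 called genes no direction turned. Among uncalled genes the difference turned in females alone for Il17a (0.22), Il17f (1.26), Il22 (0.23), Pigr (-0.24), Mx1 (-0.073), Tigit (0.0074), Kit (-0.00099), S100a8 (0.28), Cdh5 (-0.081), Cxcl3 (1.21), Tcf4 (-0.017), Pecam1 (-0.18), Tnfsf14 (0.66) and Cd28 (0.42), and in males alone for Foxp3 (-0.50). It turned with sample weights for Il17a (0.062) and Il22 (0.35), with the size factor for Il17a (0.028) and Cxcl3 (0.20), with the B cell covariate for Cd4 (0.029), H2-Ob (0.076) and Ms4a1 (0.35), and without the 3 PAT1 samples for Il21r (0.0032) and Ms4a1 (0.0097). On leaving out 1 sample Foxp3 turned without PAT1 replicate 6 (-0.048) or 7 (-0.020) or PAT3 replicate 7 (-0.042), and Cxcl3 without PAT1 replicate 1 (0.045, with a lowest value of -0.60 without PAT1 replicate 5). The cause of these shifts was not tested. Genes of few counts, such as Il17f, Il22 and Klrb1, are limited by depth.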
